A study of Homo sapiens with 2 samples.

Results

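RBMS3 sites were mapped on the transcripts of the kinesin and tubulin genes, the motors and the building blocks of the microtubule cytoskeleton. The members were all protein-coding genes of GENCODE release 44 whose name is KIF or KIFC followed by a number, or TUBA, TUBB or TUBG followed by a number, together with TUBB. This gave 64 genes of 20046, of which 42 encode kinesins and 22 encode tubulins. A gene was called bound when the site list held at least 1 position on its own strand within its annotated limits, and every other gene was counted as unbound. The members held 154 of the 27706 sites in the list.

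The list came from CLIP-seq of MDA-MB-231 cells, a widely used human cell line from a triple-negative breast tumour. The cells were stably transduced with a lentiviral vector, pLX302EF1a, that encodes RBMS3 with 2 FLAG tags at its N terminus, so the binding is that of an added, tagged protein. RNA and protein were crosslinked with ultraviolet light, the protein was recovered through its tag, and the bound fragments were sequenced from 2 biological replicates, the only group. For replicate 2, the title names this line but the other labels carry a different number after MDA-MB, and the title was followed. The authors called sites on the pooled replicates, so no value has an error between replicates and no test over samples could be made. Each site is a base that was deleted in part of the tags, the unique sequenced fragments that cover it. The list gives the number of tags and the number of them with the deletion, from which the deletion percentage was computed with its 95% Wilson interval. These intervals cover counting error only, and neighbouring sites share tags and are not replicates of each other.

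Kinesins are motor proteins that use ATP to walk along microtubules or to take apart their ends. Some carry vesicles, organelles and other cargo through the cytoplasm, and others build the mitotic spindle, move chromosomes and complete cytokinesis. Microtubules are polymers of alpha- and beta-tubulin, and gamma-tubulin nucleates them. Cells adjust tubulin mRNA to the amount of free tubulin protein through TTC5, a factor that recognizes tubulin as it emerges from the ribosome. RBMS3 is a single-stranded RNA-binding protein, and the study linked it to an AUA motif in 3′UTRs.

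The sequences at the strongest sites show what the sites of these genes have in common. Each line gives 30 bases of the transcript strand, read from the hg38 genome, around the site with the most deletions in a cluster, a group of sites within 50 nt of each other. The capital at base 15 is the deleted base, and the other capitals mark a poly(A) signal, AATAAA or its variant ATTAAA. Where the deleted base lies in a run of the same base, the exact base cannot be known, and all 116 such sites of the members were listed at the lowest coordinate of the run.

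The first set holds the tubulin sites with the most deletions, 1 for each bound tubulin gene, all of them in 3′UTRs.
TUBA1B (chr12:49127803-49127832, minus strand): acctgtaatattttTccatcatatctcaaa
TUBA1C (chr12:49273308-49273337, plus strand): tAATAAAattgaagTttccattttaaatgt
TUBA4A (chr2:219249748-219249777, minus strand): tgcatagcttcctgTcttgctgctttgctg
TUBB (chr6:30724544-30724573, plus strand): catagtaggcgctcAATAAAtacttgtttg
TUBB2A (chr6:3153684-3153713, minus strand): tattgtctgtgaagGtatctatactaataa
TUBB3 (chr16:89936066-89936095, plus strand): acttAATAAAtctaTtgctgtcagataccc
TUBB4B (chr9:137243683-137243712, plus strand): ccaccATTAAAgcaTtttcatagtgtgtgg
TUBB6 (chr18:12326527-12326556, plus strand): ttgaaataatgattCatAATAAAatactaa
TUBG1 (chr17:42615198-42615227, plus strand): tgagactatttatcTttAATAAAgcactgg

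The second set holds the 10 kinesins with the most deletions at a single 3′UTR site, at that site.
KIF5B (chr10:32009260-32009289, minus strand): atgaAATAAAgagaAtatttattcatggcg
KIF2C (chr1:44767693-44767722, plus strand): ttctgttttatgtgTttatacattgtatgt
KIF11 (chr10:92655370-92655399, plus strand): gttAATAAAtgtggTttctacattaacctg
KIF1C (chr17:5024665-5024694, plus strand): gaggatgtgggcccTttAATAAAggatagc
KIF14 (chr1:200551508-200551537, minus strand): aaagagaatgccttTAATAAAtcttttcag
KIF20B (chr10:89774883-89774912, plus strand): atgaggtcaattgaTtttatttttagatcc
KIF3B (chr20:32334979-32335008, plus strand): aaaaatcaatcagaTttattgtacctacaa
KIF20A (chr5:138187639-138187668, plus strand): tATTAAAgatattaTtgttcacatttttta
KIF23 (chr15:69448368-69448397, plus strand): ttcactttctgacaTttagatatgccaaaa
KIF18B (chr17:44924722-44924751, minus strand): tacatatatttttgGtataacAATAAAccg

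Several of these 30-base stretches lack a capital hexamer although a signal lies in the wider window, which reaches 25 nt to either side of the deletion, as in TUBB2A, KIF2C, KIF20B, KIF3B and KIF23. In TUBA1B and TUBA4A neither hexamer was present in the wider window either. The deleted base was a T in most of the lines, usually in a short run of T.

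Of the 64 members, 32 (50%) had at least 1 site, where 37.6% of all protein-coding genes did. A 3′UTR site was present in 28 members (43.8%), against 31.8% of all genes. A site with deletions in under 30% of its tags was present in 25 members (39.1%), against 29.1% of all genes. These shares are a description of the list and carry no test. No control library and no expression level of these genes was analysed here, so a low amount of a transcript and a lack of binding cannot be told apart for the unbound genes.

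The kinesins of cell division were bound more often than the other classes of kinesins and tubulins. These classes were drawn up with earlier results of these data known. A site lay in 12 of the 15 mitotic kinesins (80.0%), where 37.6% of all protein-coding genes had one. The share was nearly as high in genes of dynein and dynactin (76.0%). All 12 had a site in the 3′UTR and one in under 30% of the tags, against 31.8% and 29.1% of all genes. The bound mitotic kinesins were KIF2A and KIF2C, which take apart microtubule ends, KIF4A and KIF22, which bind chromosomes, and KIF11, which pushes spindle poles apart. The others were KIF18A and KIF18B, which act at the plus ends of microtubules, the cytokinesis motors KIF14, KIF20A, KIF20B and KIF23, and KIFC1, which moves toward minus ends. The unbound ones were KIF2B, KIF4B and KIF15. KIF2B and KIF4B are each annotated with a single transcript, and their 3′UTRs are 138 and 577 nt long. Merged over its 7 transcripts, the 3′UTR of KIF15 is 4601 nt long, and those of the bound KIFC1 and KIF18A are 373 and 581 nt. The median merged length was 1291 nt in bound and 577 nt in unbound mitotic kinesins.

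Of the 17 transport kinesins, 9 had a site (52.9%), 7 had one in the 3′UTR and 5 had one in under 30% of the tags. These 5 were KIF5B, the heavy chain of conventional kinesin, KIF3B, a subunit of the heterotrimeric kinesin that also works in cilia, KIF1C and KIF13A, motors for vesicles, and KIFC3, which moves toward minus ends. KIF1B, KIF3C, KIF16B and KIF21A were bound only at sites with deletions in most or all of a few tags. The unbound transport kinesins were KIF1A, KIF3A, KIF5A, KIF5C, KIF13B, KIF17, KIF21B and KIFC2. KIF5B was the bound member of its trio with KIF5A and KIF5C, which are known mainly from neurons. The median 3′UTR length merged over all transcripts was 2950 nt in bound and 4286 nt in unbound transport kinesins. The longest of the class was nevertheless that of the bound KIF1B (12224 nt), and the shortest was that of the unbound KIF17 (570 nt). Over all kinesins the medians were 2522 nt for bound and 1551 nt for unbound genes.

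Among the 10 remaining kinesins, KIF24 had a site in an intron (14 of 26 tags), KIF27 had one in coding sequence (7 of 7 tags), and none had a site in the 3′UTR. KIF6, KIF7, KIF9, KIF12, KIF19, KIF25, KIF26A and KIF26B were unbound. KIF7 is a regulator of Hedgehog signalling at the tip of the cilium, and KIF19 limits the length of motile cilia.

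Tubulins had a site in 9 of 22 genes (40.9%), always in the 3′UTR. The bound genes were 3 of 10 alpha-tubulins (TUBA1B, TUBA1C and TUBA4A), 5 of 10 beta-tubulins (TUBB, TUBB2A, TUBB3, TUBB4B and TUBB6) and TUBG1, one of the 2 gamma-tubulins. The unbound alpha-tubulins were TUBA1A, TUBA3C, TUBA3D, TUBA3E, TUBA3FP, TUBA4B and TUBA8. The unbound beta-tubulins were TUBB1, TUBB2B, TUBB4A, TUBB8 and TUBB8B, and TUBG2 was unbound as well. Several of these are known as tissue-restricted forms, for example TUBB1 of platelets and megakaryocytes and TUBB8 of oocytes.

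Other genes of the microtubule system were counted from lists made with earlier results of these data known. Sites were found in 5 of 7 kinesin partners (71.4%), 19 of 25 genes of dynein and dynactin (76.0%) and 20 of 31 microtubule-associated proteins (64.5%). They were also found in 10 of 22 genes of tubulin folding and modification (45.5%), and in 7 of 12 genes for other tubulins and the gamma-tubulin complex (58.3%). The share of all protein-coding genes was 37.6%. The site with the most deletions in these lists was in STMN1, a protein that sequesters free tubulin, where 1453 of 29401 tags carried the deletion (4.94%). The mitotic motor CENPE, which brings chromosomes to the spindle equator, had 7 sites, 6 of them in the 3′UTR. TTC5 had a single intronic site, with the deletion in all of 22 tags.

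**Figure D1:**
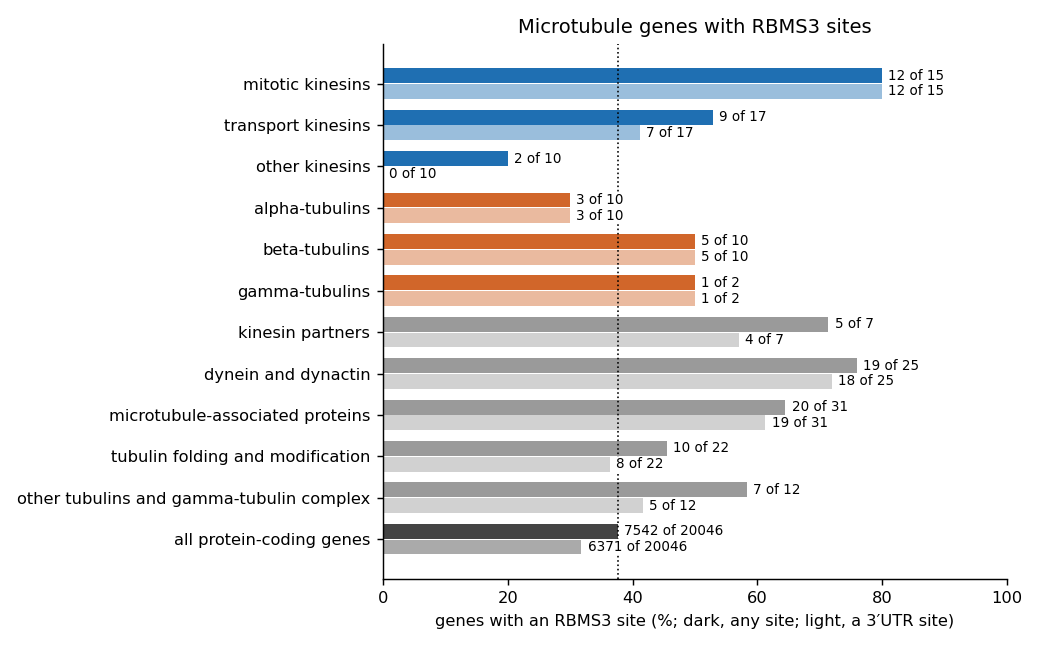
Percentage of genes with at least 1 RBMS3 site in each class of kinesins (blue) and tubulins (orange), in lists of other microtubule genes (grey) and in all protein-coding genes (black). Dark bars count any site on the gene's strand, light bars count 3′UTR sites, the dotted line marks the 37.6% of all genes, and mitotic kinesins (12 of 15) have the longest bars.

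The sites of the members fell into groups of shallow and deep coverage. At 129 sites (83.8%, compared with 75.6% of all sites in protein-coding genes) under 30% of the tags had the deletion, and these deep sites were covered by 173 to 112132 tags with a median of 10327. The other 25, the shallow sites, in 17 genes, were covered by 7 to 34 tags with a median of 16, and at 19 of them every tag carried the deletion. No member site lay between 34 and 173 tags. The shallow sites were also placed differently, with 9 in 3′UTRs, 7 in coding sequence and 9 in introns, and 7 of the 9 lay outside the 3′UTR of the representative transcript. All 9 intronic sites of the members were of this shallow kind. They were in KIF2A, KIF3C, KIF11, KIF14, KIF16B, KIF18A, KIF24 and KIFC1.

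The deep sites were placed almost wholly in 3′UTRs, at 124 of 129. All 5 exceptions formed a single cluster in the coding sequence of KIF5B, described further on. Counting both kinds, 133 of 154 sites (86.4%) were in 3′UTRs, compared with 84.7% of all sites in protein-coding genes. Counted by clusters, 41 of 58 had a 3′UTR site, compared with 9975 of 13597 in all protein-coding genes, so the members showed no excess. The share of sites was 82 of 103 for kinesins and 51 of 51 for tubulins, and no member had a site in a 5′UTR.

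Tubulin and kinesin sites had median coverages of 20193 and 6581 tags over all sites, and of 21274 and 9402 over the deep ones. The tubulin medians rest on TUBA1B, whose 13 neighbouring sites share tags. Without this gene they were 10237.5 tags over 38 sites and 11810 over 36 deep ones. The deletion percentage at deep sites had a median of 0.833% in tubulins (range 0.0692 to 8.93%) and 1.20% in kinesins (range 0.181 to 22.5%), and the tubulin median without TUBA1B was 1.24%, no lower than that of the kinesins. Among all sites of the list ranked by deletions, 1 member site was in the first 100, 5 were in the first 500 and 16 in the first 1000. The highest was in TUBA1B, at rank 50, followed by TUBG1 at rank 105.

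**Figure D2:**
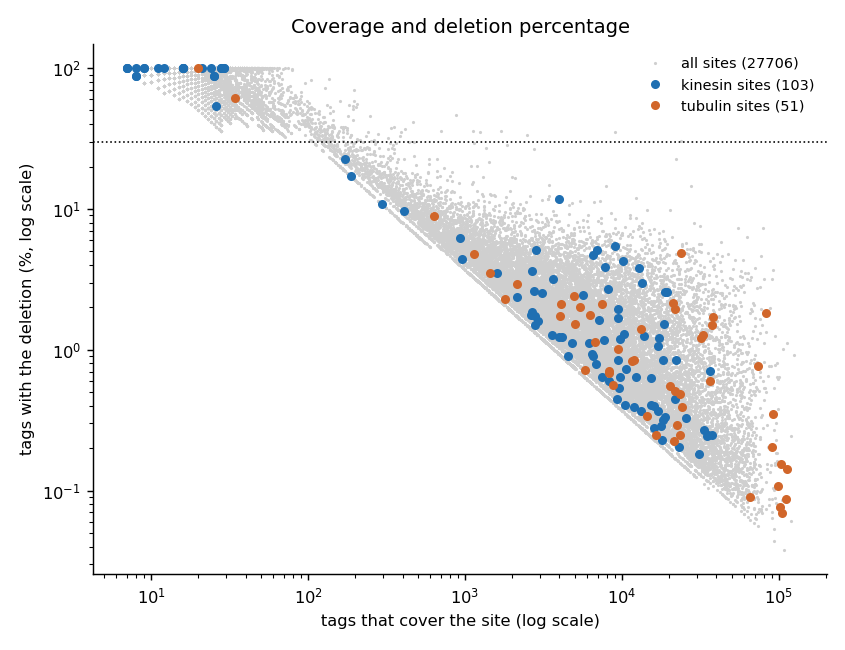
Tags that cover a site against the percentage of tags with the deletion, both on log axes, for all 27706 sites (grey), 103 kinesin sites (blue) and 51 tubulin sites (orange). The dotted line marks 30%, above which the member sites have at most 34 tags, and the most deeply covered member sites, with up to 112132 tags and percentages under 0.2%, are in a tubulin.

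**Figure D3:**
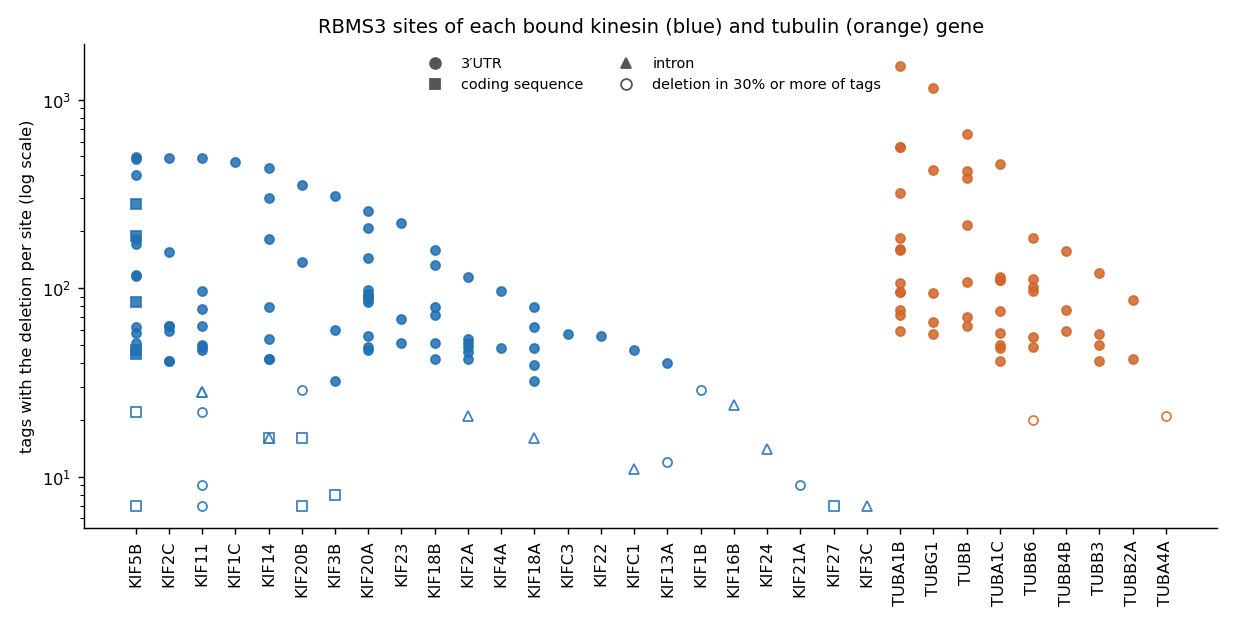
Number of tags with the deletion at each site, on a log axis, for the 23 bound kinesins (blue) and 9 bound tubulins (orange), ordered within each family by their highest site. Circles are 3′UTR sites, squares coding sequence and triangles introns, and open symbols, with deletions in 30% or more of the tags, all lie at 29 deletions or fewer.

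Alpha-tubulin sites lay almost all in 2 genes. TUBA1B and TUBA1C encode the alpha-tubulins that most dividing cells make. The 3′UTR of TUBA1B held 13 sites in a stretch of 71 nt, 0 to 44 nt from an annotated end, and the 3′UTR of the representative transcript is 176 nt long. Its strongest site had 1511 of 82242 tags with the deletion (1.84%, 95% Wilson interval 1.75 to 1.93%). The next 2 had 564 of 74051 tags (0.762%, interval 0.702 to 0.827%) and 561 of 37250 tags (1.51%, interval 1.39 to 1.63%). Coverage rose to 112132 tags in the same stretch, where the percentage was 0.144% (interval 0.123 to 0.168%). Percentages within this cluster spread from 0.0692%, at a site with 103973 tags, to the 1.84% of the strongest. AATAAA or ATTAAA was in none of the 13 windows, nor was the AUA motif, and the window of the strongest site held the variant hexamer AGTAAA.

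TUBA1C had 9 sites within 53 nt around an AATAAA, 3 to 55 nt from the end of a shorter annotated transcript and about 1.3 kb upstream of the end of the representative one (1275 to 1327 nt). At the strongest, 454 of 21274 tags carried the deletion (2.13%, interval 1.95 to 2.34%), and the other 8 sites had between 0.225 and 1.52%. The sites were thus all at an internal end, and none lay at the end of the longer form. TUBA4A, by contrast, had a single shallow site with 21 of 34 tags (61.8%, interval 45.0 to 76.1%), 52 nt from its end.

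Beta-tubulin sites were spread over 5 genes. TUBB, the main beta-tubulin of dividing cells, had 7 sites in 2 clusters. The upstream cluster held 4 sites within 13 nt, 838 to 850 nt from an annotated end, and its strongest site had 656 of 38074 tags with the deletion (1.72%, interval 1.60 to 1.86%). The deleted A there is the first base of an AATAAA or its neighbour in the run. The cluster at the end of the transcript was shallower, with 3 sites of 2156 to 5406 tags and at most 108 deletions (2.00%, interval 1.66 to 2.41%). In this gene the deeper cluster was therefore far from any annotated end, at a poly(A) signal in the interior of the 3′UTR.

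The remaining beta-tubulins had their deep sites at transcript ends. TUBB6 had 6 deep sites in 44 nt, the strongest with 185 of 13155 tags (1.41%, interval 1.22 to 1.62%), and 1 shallow site with the deletion in all of 20 tags in another transcript. TUBB4B, whose 3′UTR is 151 nt long, had 3 sites, the strongest with 157 of 7484 tags (2.10%, interval 1.80 to 2.45%), 9 nt from an end and 9 nt downstream of the start of an ATTAAA. TUBB3, the class III beta-tubulin best known from neurons, had 4 sites, the strongest with 120 of 4957 tags (2.42%, interval 2.03 to 2.89%). All 4 also lie within the limits of an annotated gene on the same strand (ENSG00000198211), so they cannot be assigned to TUBB3 alone. TUBB2A had 2 sites, with 87 of 4088 tags (2.13%, interval 1.73 to 2.62%) and 42 of 5811 tags (0.723%, interval 0.535 to 0.975%), while no site was listed in its close relative TUBB2B.

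TUBG1 encodes the gamma-tubulin that nucleates microtubules at the centrosome. It had 5 sites in 38 nt, 0 to 37 nt from an annotated end. At the strongest, 3 nt before the start of an AATAAA, 1155 of 23701 tags carried the deletion (4.87%, interval 4.61 to 5.15%). A site 6 nt upstream had 422 of 21730 tags (1.94%, interval 1.77 to 2.13%), and a site 3 nt downstream had 94 of 23999 tags (0.392%, interval 0.320 to 0.479%). These intervals do not overlap, and the percentages were 4.87 and 0.392% at listed positions 3 nt apart, at nearly the same coverage. The first of these positions lies in a run of 3 T and the second in a run of 2 A, so the exact distance cannot be known.

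Among the transport kinesins, KIF5B had the most sites of any member, 17, in 5 clusters. In the 3′UTR, 4 sites lay 4 to 46 nt from the end, the strongest with 398 of 13447 tags (2.96%, interval 2.69 to 3.26%). A further 6 sites lay in 19 nt, 251 to 269 nt from the end, and the strongest of the gene was there, with 498 of 19398 tags (2.57%, interval 2.35 to 2.80%). Both clusters contain an AATAAA, and the AUA motif was in 9 of the 10 windows.

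The coding sequence of KIF5B held a cluster of a kind not seen in another member, with 5 sites within 38 nt covered by 16084 to 25635 tags. The strongest had 279 of 18416 tags with the deletion (1.51%, interval 1.35 to 1.70%), and the others ranged from 0.203 to 0.853%. It contains neither poly(A) signal nor the AUA motif, and it lies 25761 to 25798 nt of genomic sequence upstream of the gene's end. The number of A among the next 30 bases was 9 at the strongest site and 21, 15, 17 and 22 at the others in order of deletions, and at all other member sites it was at most 18. The bound RNA was captured through an A tail, and the part of the A content in this cluster was not tested. The sequence of the strongest site of this cluster is shown with that of the strongest site at the transcript end, for comparison with the 3′UTR site printed above.
KIF5B coding sequence (chr10:32034798-32034827, minus strand): ttaagaacacagttTgtgtcaatgtggagt
KIF5B transcript end (chr10:32009031-32009060, minus strand): ttgtaaatgcgtttTatgtttaAATAAAga

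KIF1C had a single site, and it was far from the end. At this site, 3722 nt upstream of the end in a 3′UTR of 4250 nt, 469 of 4001 tags carried the deletion (11.7%, interval 10.8 to 12.8%), the highest percentage among member sites with more than 1000 tags. The deletion is 3 nt before the start of an AATAAA. KIF3B had 3 sites in its 3′UTR of 3692 nt, the strongest with 310 of 6581 tags (4.71%, interval 4.22 to 5.25%), 18 nt from the end, and 1 shallow site in coding sequence. KIFC3 had 57 of 924 tags (6.17%, interval 4.79 to 7.91%), 51 nt from the end. The deep site of KIF13A, with 40 of 411 tags (9.73%), lay in a transcript other than the representative one.

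Among the mitotic kinesins, 59 of 72 sites were deep, and 53 of the 63 3′UTR sites lay within 100 nt of an annotated end. The 13 shallow sites were mostly in KIF11 (5), KIF20B (3) and KIF14 (2). KIF11, the target of several inhibitors of mitosis, had 7 deep sites 6 to 56 nt from an end, the strongest with 488 of 12884 tags (3.79%, interval 3.47 to 4.13%). A site 3 nt upstream of it had 49 of 13277 tags (0.369%, interval 0.279 to 0.488%). KIF11 was counted with 4 clusters in its 3′UTRs, but 3 of these rest on shallow sites of 7 to 25 tags that are coding sequence in the representative transcript. KIF2C, the best-known microtubule depolymerase of the centromere, had 7 sites in 36 nt, the strongest with 492 of 8982 tags (5.48%, interval 5.03 to 5.97%).

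KIF14, a motor required for cytokinesis, had 5 sites 10 to 74 nt from the end, the strongest with 435 of 10174 tags (4.28%, interval 3.90 to 4.69%), and 2 more at 712 and 728 nt, whose windows held no poly(A) signal. KIF20A, which carries regulators to the spindle midzone, had the most deep 3′UTR sites of any kinesin, 12 in 77 nt. They were covered by up to 37409 tags, and the strongest had 256 of 36170 (0.708%, interval 0.626 to 0.800%). An ATTAAA was in 8 of its 12 windows, and AATAAA and the AUA motif were in 0. KIF20B had 355 of 6968 tags (5.09%, interval 4.60 to 5.64%) at its strongest site, 37 nt from the end.

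KIF23, a subunit of the centralspindlin complex, had 3 sites, the strongest with 221 of 8195 tags (2.70%, interval 2.37 to 3.07%). In contrast to KIF20A, all 3 windows held the AUA motif apart from any AATAAA, and 1 held a poly(A) signal. KIF18B had 6 sites in 49 nt, the strongest with 159 of 9505 tags (1.67%, interval 1.43 to 1.95%). Its relative KIF18A had 5 deep sites. Of these, 3 lay 29 to 43 nt from the end, each with the deletion in between 0.640 and 0.646% of tags. The other 2, at 425 and 436 nt, had 188 and 173 tags and percentages of 17.0 and 22.5%. KIF4A had 2 sites (up to 97 of 2680 tags, 3.62%), KIFC1 had 1 deep site with 47 of 2935 tags (1.60%) and KIF22 had a single site with 56 of 1596 tags (3.51%).

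KIF2A was the kinesin with the most deep 3′UTR clusters, 3, each at its own AATAAA. They lay at an annotated internal end (54 of 6797 tags, 0.794%), in the interior of the 3′UTR 2309 nt from the end (115 of 3628 tags, 3.17%, interval 2.65 to 3.79%), and at the final end (51 of 4169 tags, 1.22%). The 3′UTR in its last exon is 5456 nt long and holds 15 copies of AATAAA or ATTAAA. All sites of this gene also lie within an annotated readthrough gene on the same strand (ENSG00000288643). The 3 sequences are shown in order from the coding side. The AATAAA begins 7 nt downstream of the listed deletion at both the internal end and the interior site. At the final end the deleted A is the first base of the signal or its neighbour in the run.
KIF2A internal end (chr5:62386340-62386369, plus strand): aatataaactagttGgtgtatAATAAAaag
KIF2A interior (chr5:62388702-62388731, plus strand): agaagagtaacatcTttatacAATAAActg
KIF2A final end (chr5:62390988-62391017, plus strand): aatataagattcagAATAAAtgaacgacat

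**Figure D4:**
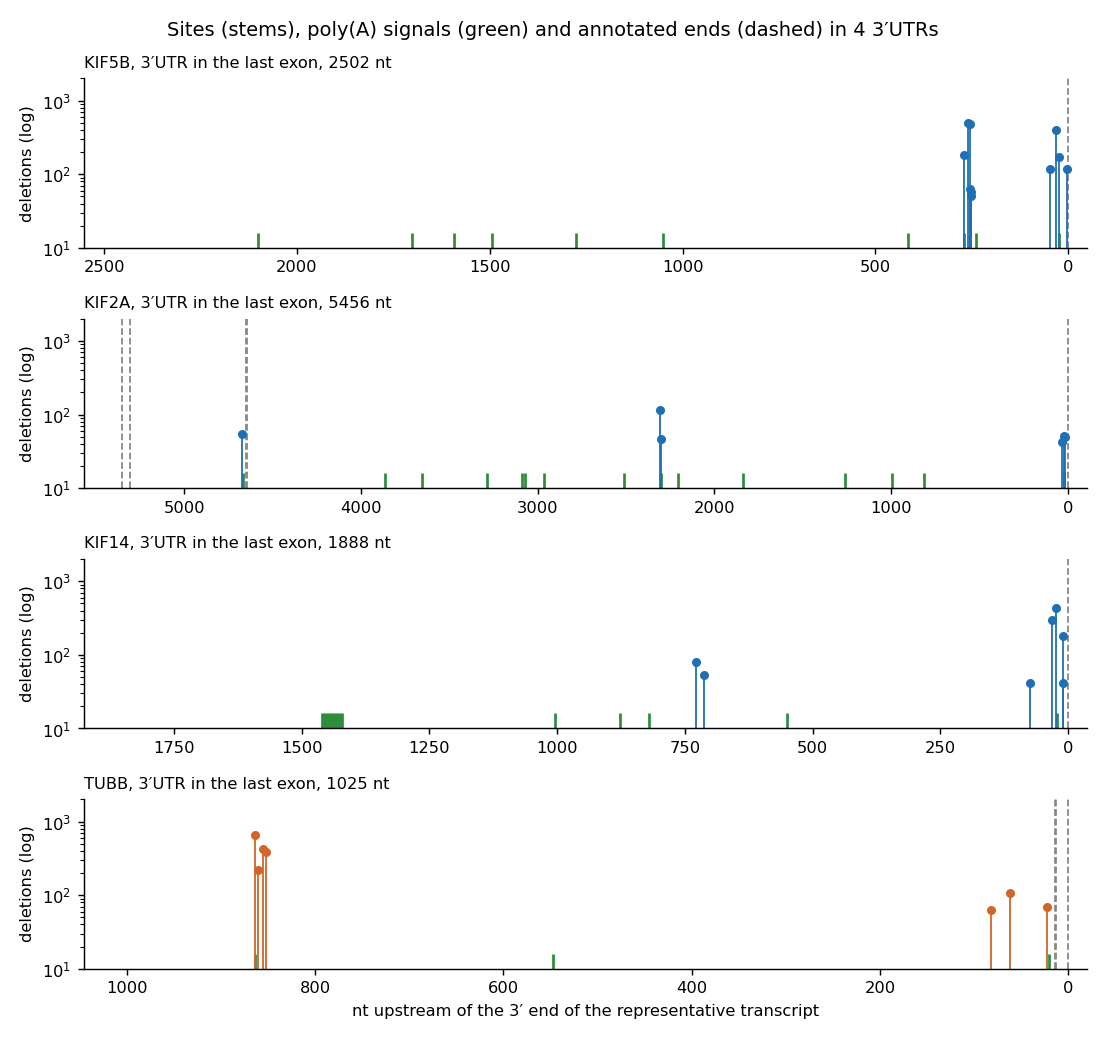
Sites in the last-exon 3′UTRs of KIF5B, KIF2A, KIF14 and TUBB, with nt upstream of the end of the representative transcript on the x axis and deletions per site as stems on a log y axis. Green ticks mark AATAAA or ATTAAA and dashed lines annotated ends. Sites lie at the final end in all 4 genes and also in the interior, at 251 to 269 nt in KIF5B and at 852 to 864 nt in TUBB.

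Over all members, 108 of 133 3′UTR sites (81.2%) lay within 100 nt upstream of an annotated end of their gene, where 69.1% of all 3′UTR sites in protein-coding genes did. Neighbouring sites share tags, and with 1 site per cluster the members' share was 27 of 41 (65.9%). The value per cluster was not computed for all genes, so the members cannot be called more end-proximal. By sites, the share was 92.2% in tubulins, 84.1% in mitotic kinesins and 42.1% in transport kinesins. In the transport kinesins, 6 of the 11 sites far from an end were in KIF5B. Of the 28 members with a 3′UTR site, 24 had a site within 100 nt of an end. Deep 3′UTR sites farther from an end were found in 7 members, of which 6 were the kinesins KIF1C, KIF2A, KIF5B, KIF13A, KIF14 and KIF18A and the last was TUBB.

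**Figure D5:**
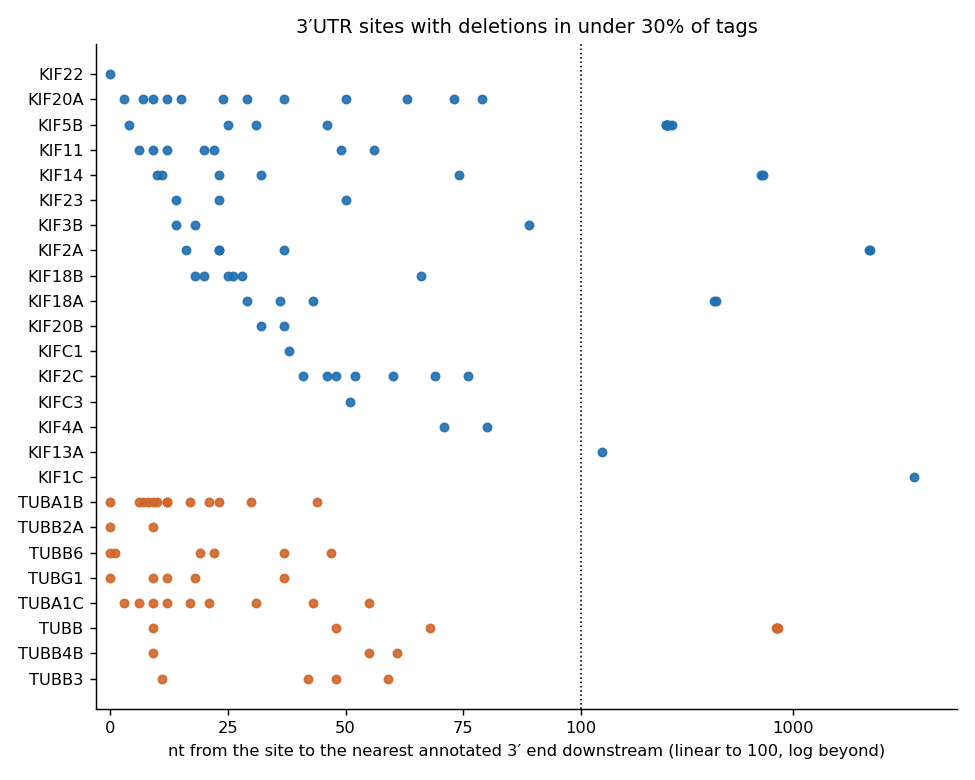
Distance in nt from each deep 3′UTR site to the nearest annotated end downstream in the same gene, linear to 100 nt and logarithmic beyond, for kinesins (blue) and tubulins (orange). The dotted line marks 100 nt, and 106 of the 124 sites lie to its left.

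The poly(A) signal guides the cut at which an mRNA ends and its tail is added, and most windows held one. AATAAA or ATTAAA was in the window of 84 of 133 3′UTR sites (63.2%), compared with 65.4% of all 3′UTR sites, and AATAAA alone was in 54.1% against 52.7%. Of all 51-nt stretches of the members' 3′UTRs, 6.61% held either hexamer, and of those of all genes 7.18% did. The share was 69.5% in kinesins, 69.6% in beta-tubulins and 30.4% in alpha-tubulins, where all 13 windows of TUBA1B lacked it. At the 41 clusters, taken at their strongest site, the signal began downstream of the deletion in 16, lay upstream of it in 8, contained the deleted base in 2 and was absent from 15. Among the 7 deep clusters far from an end, 4 held a signal.

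The signal is also present where no site was listed. The last 51 nt of the representative transcript held AATAAA or ATTAAA in 28 of 32 unbound members and in 20 of 23 members with a site within 100 nt of that end. Most ends of bound and unbound kinesin and tubulin genes carried one of the hexamers.

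The AUA motif was searched on the transcript strand as 12 heptamers, which have ATA in the middle, A or T on both sides of it, any base but C at the start and A at the end. It overlaps the poly(A) signal, since AAATAAA is among them. It was present in 66 of 133 windows (49.6%), compared with 51.7% of all 3′UTR sites and 8.64% of all 51-nt stretches of the members' 3′UTRs. Those stretches cover whole 3′UTRs, whereas most sites lay near transcript ends. The last 51 nt of the representative transcript held the motif in 22 of 32 unbound members. The same was true of 16 of 23 members with a site within 100 nt of that end. Only 14 windows (10.5%) held a match that does not contain AATAAA, against 15.5% of all 3′UTR sites and 5.48% of the members' stretches. These were in 5 genes, KIF2A, KIF14, KIF18B, KIF23 and TUBG1, and KIF18B accounted for 5 of them.

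T was the deleted base at 92 of 154 member sites (59.7%), against 64.3% of all sites in protein-coding genes. A was deleted at 36, G at 14 and C at 12. Of the 92 deleted T, 11 stood alone, 26 were in runs of 2 and 27 in runs of 3, and the longest run, of 10, was in KIFC1.

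Related sequence elsewhere in the genome limits some assignments. At least 46 of the 51 bases around the strongest site of a cluster were also found at other places for KIF1C, KIF2C, KIF3C, KIF5B, KIF20B, KIF27, TUBA1B, TUBB and TUBG1. The number of such places was 31 for the intronic site of KIF3C, 4 for KIF20B and 1 or 2 for the others, and no copy was identical over all 51 bases. Only windows of listed sites were searched, so near copies of sequence in the unbound genes were not examined. On the opposite strand of the members, 10 sites were listed, in KIF2A, KIF5C, KIF13B, KIF17, KIF20A and TUBB6, and they were not counted as binding of these genes.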

How the data were processed

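The CLIP-seq data on tagged RBMS3 were analysed from 1 list of sites. The authors processed the reads with the CLIP Tool Kit, aligned them to hg38, pooled the unique tags of both replicates and called deletion sites under a limit on the false discovery rate. The deposited values are counts, not normalized: the tags that cover a site and the tags with the deletion. RNA was captured and reverse transcribed through a poly(A) tail added to it, and a natural tail can serve in the same way. Depth is known per site only.

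The deleted base is the centre of each interval of 21 nt. Sites were placed on all transcripts of GENCODE release 44, in the order 3′UTR, 5′UTR, coding sequence, noncoding exon and intron, with strand. Distances were taken to the nearest annotated end downstream. Each window had 25 nt on each side. Near copies were found with BLAST 2.17.0. The placement, distance, cluster and interval functions were tested on simulated positions. Every member with a site is named, and values in full are given for every tubulin with a 3′UTR site, for the 10 kinesins with the most deletions at a 3′UTR site and for members with 3 or more 3′UTR clusters. The members and lists were chosen with earlier results of these data known. Python 3.11.15, pysam 0.24.0, samtools 1.23.1, numpy 2.4.6 and matplotlib 3.10.9 were used.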

Additional observations from a re-analysis of the deposited data

How the results depend on the processing

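Of 81 values recomputed for 8 results, 59 stayed within 1.5 times a count or within the 95% Wilson interval of a share, and 22 did not. These intervals count every site as independent, although neighbouring sites share tags. They served as a yardstick only and measure no spread between samples. Bound kinesins were 15 with at least 50 deletions per site, and bound tubulins were 2 with deletions in at least 10% of tags. Member sites were 29 with at least 10% of tags and 58 with 1 site per cluster. The 3′UTR share of 86.4% was 92.8% and 97.1% with at least 20 and 50 deletions, 96.1% with under 30% of tags, 44.8% with at least 10% and 70.7% with 1 site per cluster. The share near an end, 81.2%, was 23.1% with at least 10% of tags, 65.9% with 1 site per cluster and 66.2% within 50 nt. The poly(A) signal share of 63.2% was 23.1% with at least 10% of tags, 28.6% and 78.2% with 10 and 50 nt on each side, 54.1% with AATAAA alone and 75.2% with any of 12 signal hexamers, an alternative chosen after seeing the data. The AUA share of 49.6% was 7.69% with at least 10% of tags, 17.3% and 65.4% with 10 and 50 nt on each side, and 10.5% without matches that contain AATAAA. The share of deleted T, 59.7%, was 28.9% (11 of 38) where the deleted base differs from both neighbours. A filter on at least 10% of tags left 13 3′UTR sites, 9 of them shallow. The changes of window, of distance to an end, of hexamers and of motif matches could each move a share in a single direction only, by definition. For the other changes the cause was not tested.

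No paired analysis was possible because both replicates, which form the only group, were merged into the list before it was deposited. For the same reason leaving out a replicate was not done. Member sites under 30% had at least 173 tags, and those at 30% or more had 7 to 34, so the percentages of the latter rest on few tags.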
